A study of Solanum tuberosum with 8 samples.

Results

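Phenylalanine ammonia-lyase (PAL) is the enzyme that removes ammonia from phenylalanine to give cinnamic acid. Its mRNA was followed in potato (Solanum tuberosum) tubers by RNA-Seq after cutting. The family was taken as the identifiers listed as PAL in the study, and any other PAL gene is not analysed here. They are 10 of 42667 genes in the deposited expression table, namely PGSC0003DMG401021564, PGSC0003DMG402021564, PGSC0003DMG401021549, PGSC0003DMG402021549, PGSC0003DMG400023458, PGSC0003DMG400031457, PGSC0003DMG400019386 and PGSC0003DMG400031365 of the reference annotation together with Novel01736 and Novel01899, which the authors predicted from their own reads. Tubers of X2 and of D6 were wounded by cutting and sampled at 0, 4, 12 and 24 h. X2 is the tetraploid cultivar Xingjia 2, and D6 is known here only by that code name. Each X2 replicate is described as a mixture of several tubers, taken as blocks from skin to pith and so a mixture of cell types. In such bulk samples a change in the number of cells of a type and a change in RNA per cell cannot be told apart.

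For X2 there are 3 libraries at each of 0, 4 and 12 h, and for 24 h only replicates 1 and 3. D6 has 1 library at 0 h, replicate 3, and 3 libraries at each later time. Every comparison of D6 with 0 h therefore rests on a lone library, which is assumed to vary like the others. More than 1 column is headed as replicate 2 of X2 at 4 h. The first of them was read, on its place in the header, and which library the other holds was not established. Without that replicate 9 of 9 tested PAL genes were still called higher in X2 at 4 h than at 0 h, 3 were lower than in D6, and the call of Novel01899 in the step from 4 to 12 h was lost.

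PAL catalyses the entry step of the phenylpropanoid pathway. Cinnamic acid is the precursor of lignin monomers, of the phenolic part of suberin, of chlorogenic acid and, by way of chalcone synthase, of the flavonoids. Plants carry PAL as a small gene family, and wounding of potato tubers is known to raise PAL activity. The members have no individual role that the files state, so they are ordered below by their level. A PAL gene of high sequence similarity can take reads of another, and how reads that map to several places were counted is not given in the sources used here.

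The primers that the study designed for 3 members show short stretches of their sequence. Such chosen sites do not show how alike the whole genes are. In the forward primers of PGSC0003DMG401021549 and PGSC0003DMG402021564 the capitals mark the positions at which they differ, and in the reverse primers the run they share. The primers of PGSC0003DMG400031365 were not compared with those of the others and have no capitals.
P1549_F, forward, PGSC0003DMG401021549: cgAtcactgcctcGggtg
P1564_F, forward, PGSC0003DMG402021564: cgGtcactgcctcAggtg
P1549_R, reverse, PGSC0003DMG401021549: accactaACACCAGCCgc
P1564_R, reverse, PGSC0003DMG402021564: ACACCAGCCacacggaac
P1365_F, forward, PGSC0003DMG400031365: gagtgccagagtcgcgtt
P1365_R, reverse, PGSC0003DMG400031365: attccgtcccgagctcct
The forward primers P1549_F and P1564_F differ at 2 of 18 positions, A3G and G14A, counted from 1 at the 5′ end with the base of P1549_F first. The reverse primers P1549_R and P1564_R share a run of 9 bases. How far these genes share reads was not tested, so their separate values are uncertain to that extent.

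Novel01736 and Novel01899 were predicted on opposite strands of the same stretch. On SolTub_3.0, Novel01736 runs from 5473481 to 5514106 on the plus strand of chromosome 3, and Novel01899 from 5474232 to 5514347 on the minus strand. The spans overlap by 39875 bases. Whether the counting used strand is not given in the sources used here, so reads of these genes cannot be told apart with certainty.

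Levels are given as deposited, in FPKM, which is the number of fragments on a gene scaled by gene length and library size. Each X2 library held between 29746314 and 44921591 reads on genes, and each D6 library between 24226307 and 35649617. No PAL gene was at 0 in any library. The fewest reads on a member were the 13 reads on Novel01899 in X2 replicate 3 at 0 h, and the most were the 77459 reads on PGSC0003DMG402021549 in D6 replicate 2 at 24 h. Libraries of 1 group correlated with Pearson's r of 0.979 to 0.994 across 20353 genes on log2(FPKM + 1). The D6 library at 0 h correlated with the X2 libraries at 0 h at 0.917 to 0.926, and with every library of a later time at 0.715 to 0.766. Patatin-3-Kuras 1, a storage protein of tubers, had 19.0 FPKM in X2 and 11.8 FPKM in D6 at 0 h (means, n = 3 and 1). The X2 libraries spanned 6.02 to 29.1 FPKM, around the D6 value.

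The summed FPKM of the 10 PAL genes grew at every sampling in X2. The sums were 137, 61.1 and 118 FPKM at 0 h, 459, 582 and 665 FPKM at 4 h, 969, 911 and 924 FPKM at 12 h, and 1343 and 1127 FPKM at 24 h. No 2 neighbouring times overlapped. The group means were 105 ± 39.5, 569 ± 103 and 935 ± 30.5 FPKM at 0, 4 and 12 h (SD, n = 3 each) and 1235 ± 153 FPKM at 24 h (SD, n = 2). Relative to 0 h the sum was 5.40-fold, 8.88-fold and 11.7-fold at the successive times. PAL genes took 0.522% of the reads on genes at 24 h, against 0.0409% at 0 h, as group means.

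D6 did not start low. Its library at 0 h had 927 FPKM, which is above every X2 library at 0 and 4 h. The sums were 862, 866 and 932 FPKM at 4 h, 1379, 1255 and 1159 FPKM at 12 h, and 1500, 1640 and 1370 FPKM at 24 h. Replicate 3 at 4 h lay above the 0 h library and the other two below it, and the libraries of 12 and 24 h overlapped. The group means were 887 ± 39.1, 1265 ± 110 and 1504 ± 135 FPKM at 4, 12 and 24 h (SD, n = 3 each), or 0.957-fold, 1.36-fold and 1.62-fold of the 0 h library. PAL genes took 0.354% of the reads in the D6 library at 0 h (95% Wilson interval 0.352 to 0.356%, counting error only).

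**Figure D1:**
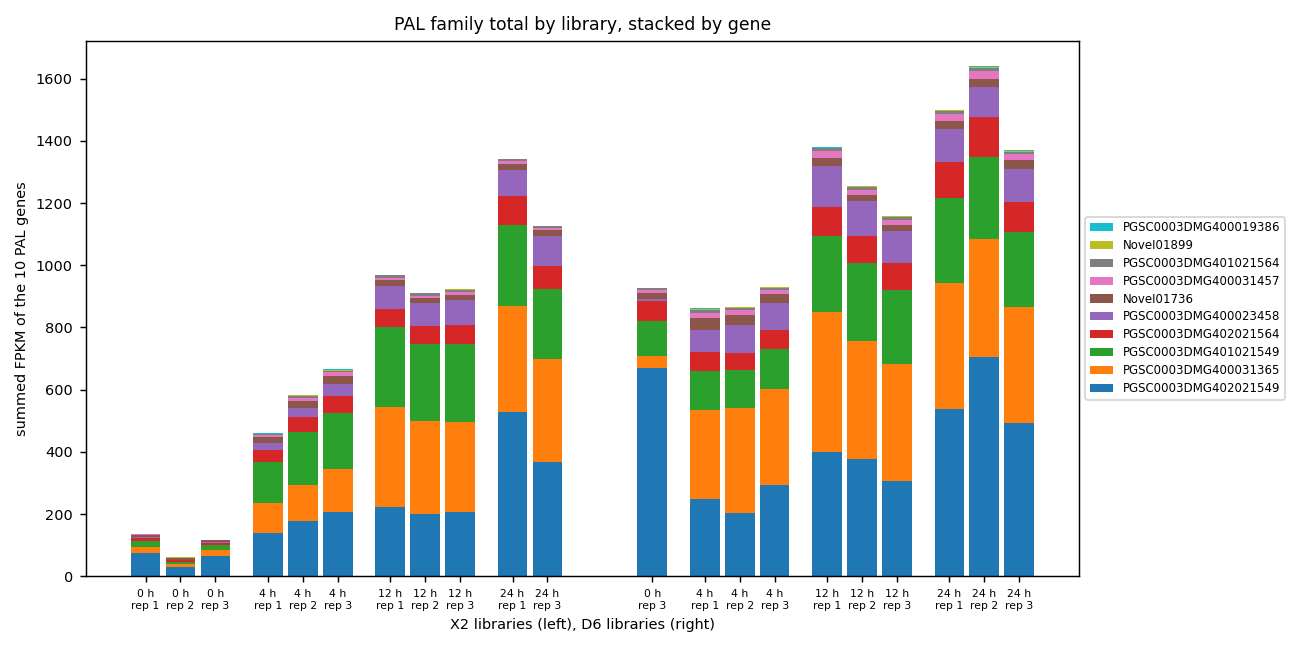
Summed FPKM of the 10 PAL genes (vertical axis, from 0) in each of the 21 libraries (bars), X2 on the left and D6 on the right, stacked by gene. The X2 bars reach 1127 and 1343 FPKM at 24 h, against 61.1 to 137 FPKM at 0 h, while the D6 bar at 0 h already stands at 927 FPKM, most of it PGSC0003DMG402021549 (blue).

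A few genes made up almost all of the family. The 5 genes PGSC0003DMG402021549, PGSC0003DMG400031365, PGSC0003DMG401021549, PGSC0003DMG402021564 and PGSC0003DMG400023458 together held 85.4 to 97.4% of the family FPKM in every library. The other 5 shared the rest, led by Novel01736. The make-up of the total changed with time.

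PGSC0003DMG402021549 was the leading PAL gene at 0 h. In X2 it had 75.5, 29.4 and 65.3 FPKM at 0 h, 138, 177 and 206 FPKM at 4 h, 223, 201 and 208 FPKM at 12 h, and 527 and 366 FPKM at 24 h. It thus rose early and again late, with 4 and 12 h overlapping. Its share of the X2 family was 52.9 ± 4.17%, 30.5 ± 0.396% and 22.5 ± 0.475% at 0, 4 and 12 h (SD, n = 3 each), and 35.9 ± 4.81% at 24 h (SD, n = 2). In D6 it had 670 FPKM at 0 h, 249, 205 and 295 FPKM at 4 h, 399, 377 and 307 FPKM at 12 h, and 539, 704 and 494 FPKM at 24 h. The D6 values passed through a low at 4 h, and only replicate 2 of 24 h exceeded the 0 h library. In D6 this gene held 72.3% of the family at 0 h, then 28.1 ± 4.06%, 28.5 ± 1.799% and 38.3 ± 4.02% at 4, 12 and 24 h (SD, n = 3 each).

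PGSC0003DMG400031365 was the highest member at 12 h in X2 and at 4 and 12 h in D6. In X2 it had 20.1, 8.89 and 17.8 FPKM at 0 h, 97.0, 118 and 139 FPKM at 4 h, 320, 297 and 288 FPKM at 12 h, and 342 and 331 FPKM at 24 h. Most of its rise in X2 was over by 12 h. In D6 it had 37.8 FPKM at 0 h, 284, 337 and 307 FPKM at 4 h, 451, 381 and 376 FPKM at 12 h, and 402, 381 and 371 FPKM at 24 h. In X2 the 4 h mean was 35.0% of the highest mean, that of 24 h, and in D6 it was 76.8% of the highest, that of 12 h. Its share of the family was highest at 12 h in X2 (32.3 ± 0.994%) and at 4 h in D6 (34.9 ± 3.44%; SD, n = 3 each).

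PGSC0003DMG400023458 followed the same course at a lower level. In X2 it had 2.62, 1.20 and 1.92 FPKM at 0 h, 23.4, 29.5 and 38.0 FPKM at 4 h, 73.5, 71.6 and 79.8 FPKM at 12 h, and 85.1 and 98.5 FPKM at 24 h. In D6 it had 4.79 FPKM at 0 h, 72.0, 90.2 and 85.8 FPKM at 4 h, 132, 111 and 104 FPKM at 12 h, and 107, 97.3 and 105 FPKM at 24 h. All X2 libraries of 4 h lay below those of D6, whereas at 24 h X2 and D6 overlapped. Its share at 0 h was 1.84 ± 0.184% in X2 (SD, n = 3) and 0.517% in D6.

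PGSC0003DMG401021549 rose steeply in X2 and late in D6. In X2 it had 17.6, 8.08 and 16.7 FPKM at 0 h, 133, 170 and 181 FPKM at 4 h, 258, 248 and 250 FPKM at 12 h, and 260 and 228 FPKM at 24 h. In D6 it had 114 FPKM at 0 h, 127, 122 and 131 FPKM at 4 h, 245, 249 and 236 FPKM at 12 h, and 276, 263 and 241 FPKM at 24 h. At 4 h it held 28.5 ± 1.06% of the family in X2 and 14.3 ± 0.366% in D6 (SD, n = 3 each), and it was the only member whose X2 libraries all exceeded the D6 libraries at that time.

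PGSC0003DMG402021564 kept an almost fixed share, 6.19 to 8.26% of the family in each X2 library and 6.20 to 7.77% in each D6 library. In X2 it had 10.7, 4.60 and 8.50 FPKM at 0 h, 37.7, 48.1 and 54.0 FPKM at 4 h, 59.9, 59.4 and 62.0 FPKM at 12 h, and 92.5 and 71.3 FPKM at 24 h. In D6 it had 63.3 FPKM at 0 h, 61.2, 53.7 and 61.1 FPKM at 4 h, 92.8, 88.7 and 87.2 FPKM at 12 h, and 114, 127 and 98.1 FPKM at 24 h. In D6 all 4 h libraries lay just below the 0 h library and all later ones above it.

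**Figure D2:**
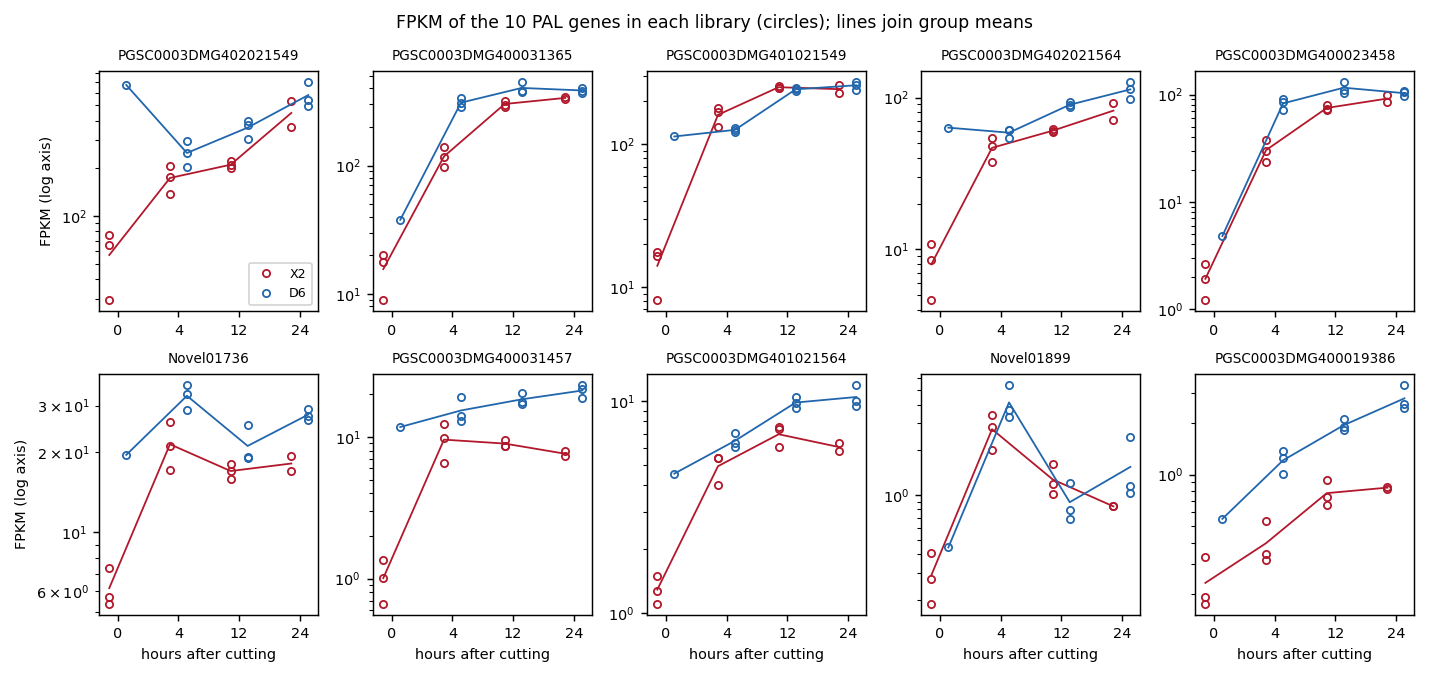
FPKM (vertical, log axis with its own range in each panel) of each PAL gene against hours after cutting (categories), with X2 in red left of D6 in blue; circles are libraries and lines join group means. PGSC0003DMG402021549 dips in D6 to 205 to 295 FPKM at 4 h, against 670 FPKM at 0 h, while its X2 values climb, and Novel01899 peaks at 4 h in both.

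The lower genes differed in their time courses. Novel01736 and Novel01899 had their highest mean at 4 h in both X2 and D6. Novel01899 had 1.99, 2.82 and 3.42 FPKM in X2 at 4 h, against 0.273, 0.412 and 0.188 FPKM at 0 h and 0.836 and 0.839 FPKM at 24 h. In D6 it had 5.43, 3.32 and 3.66 FPKM at 4 h and 0.446 FPKM at 0 h. Novel01736 was more abundant, with 21.5 ± 4.45 FPKM in X2 and 32.7 ± 3.58 FPKM in D6 at 4 h (SD, n = 3 each).

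PGSC0003DMG400019386, with Novel01899 the lowest of the family, had a mean that grew with each time in both X2 and D6. It reached 0.838 ± 0.0155 FPKM in X2 (SD, n = 2) and 2.79 ± 0.489 FPKM in D6 (SD, n = 3) at 24 h, against 0.232 ± 0.0852 FPKM in X2 (SD, n = 3) and 0.550 FPKM in D6 at 0 h. PGSC0003DMG400031457 reached 9.56 ± 2.88 FPKM in X2 at 4 h and was level or lower after that, with 7.60 ± 0.435 FPKM at 24 h. In D6 its mean kept growing, to 21.2 ± 2.32 FPKM at 24 h. PGSC0003DMG401021564 had its highest mean at 12 h in X2, 6.96 ± 0.786 FPKM, and at 24 h in D6, 10.4 ± 1.31 FPKM (SD, n = 3 each), and in each the libraries of 12 and 24 h overlapped.

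By group means, X2 had 3 members that were highest at 4 h, 2 members highest at 12 h and 5 highest at 24 h. D6 had 1 member highest at 0 h (PGSC0003DMG402021549), with 2 members each at 4 and 12 h and 5 members at 24 h. The highest and next highest group overlapped for 5 members in X2 and for 7 in D6, so that the order of neighbouring times was often not resolved.

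The 0 h samples differed in PAL level between X2 and D6. Of the 10 genes, 8 had a mean of at least 0.5 FPKM at 0 h, and in 8 of these 8 every X2 library lay below the D6 library, as it did in 40.5% of all 18522 genes at that level. In 6 of the 8, every X2 library was below 0.5 times the D6 value, against 9.83% of all genes. PGSC0003DMG402021549 averaged 56.7 FPKM in X2 and had 670 FPKM in D6, 11.8-fold more in D6, and PGSC0003DMG401021549 averaged 14.1 FPKM in X2 and had 114 FPKM in D6, 8.05-fold more in D6. PGSC0003DMG400031457 was 11.6-fold higher in D6 and PGSC0003DMG402021564 7.96-fold. By contrast PGSC0003DMG400031365 and PGSC0003DMG400023458 were 2.42-fold and 2.50-fold higher in D6. The median over all genes was 1.01-fold. There is 1 D6 library at 0 h, so no test was made. A property of D6 tubers and one of that library cannot be told apart.

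X2 replicate 2 stood below the other X2 libraries of 0 h in 6 of the 10 members. Over all genes with a mean of at least 0.5 FPKM at 0 h, replicate 2 was the lowest in 30.6%. The members were counted without that filter, and PGSC0003DMG400019386 (0.232 FPKM) and Novel01899 (0.291 FPKM) fell under it in X2. The members in which it was not the lowest were PGSC0003DMG401021564, PGSC0003DMG400031457, Novel01736 and Novel01899.

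To ask which members changed after cutting, each later time was compared with 0 h by limma on log2(FPKM + 0.1). A gene was called where the log2 difference was at least 1 in either direction with p no higher than 0.01 before adjustment. Adjusted p-values take in every gene of the table that was tested. All comparisons of X2 with 0 h share the same 0 h libraries, as do those of D6. In X2 at 4 h, 9 of the 9 PAL genes with a mean of at least 0.5 FPKM were called higher than at 0 h, against 35.4% of all genes tested. At 12 h it was 10 of 10, against 36.6%, and at 24 h 9 of 9, against 33.5%. The study had reported all the PAL genes it listed as raised after cutting, from these same X2 samples. The X2 counts and medians of the listed genes are therefore no independent result. PGSC0003DMG400019386 was under the filter at 4 and 24 h. Novel01899, at every time, and PGSC0003DMG400019386, at 12 h, were under 0.5 FPKM at 0 h and passed the filter only through the later group, which favours a call higher. With the filter at a mean of 1 FPKM, 8 members were called at 12 h and 8 at 24 h. The median log2 difference of the PAL genes tested was 2.87, 2.67 and 3.06 at the 3 times, against 0.47, 0.47 and 0.37 over all genes.

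The largest increase in X2 was that of PGSC0003DMG400023458, with log2 differences of 3.95 ± 0.28, 5.28 ± 0.24 and 5.57 ± 0.30 at 4, 12 and 24 h (SE, as throughout for log2 differences). The adjusted p was 6.25e-06, 1e-06 and 2.61e-05, and no library of a later time overlapped 0 h. PGSC0003DMG400031365 had 2.98 ± 0.29, 4.35 ± 0.28 and 4.51 ± 0.34 (adjusted p = 3.74e-05, 4.29e-06 and 6.56e-05). The leading gene of 0 h, PGSC0003DMG402021549, rose by 1.70 ± 0.34 at 4 h and 3.06 ± 0.42 at 24 h (adjusted p = 0.00201 and 0.000732). The smallest called difference was that of Novel01899 at 24 h, 1.30 ± 0.32 (adjusted p = 0.0104), which rests on 13 to 34 reads at 0 h and was no longer called with a pseudocount of 1 (0.51), after median-of-ratios scaling (0.99), or without X2 0 h replicate 1 (1.29) or 3 (1.10).

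In D6 the members parted. At 4 h, 4 of 10 were called higher than at 0 h, against 30.0% of all genes, and 1 was called lower, against 17.5%. At 12 h, 5 of 10 were called higher, against 30.6%, and at 24 h 5 of 10, against 29.0%. The share called higher in D6 was thus closer to that of all genes than in X2. The listed genes are ones the study had reported as rising in X2, which favours a higher share there. No contrast between X2 and D6 can be drawn from these shares. Novel01899, called higher at 4 h, had 0.446 FPKM in the D6 library at 0 h. It passed the filter only through the 4 h libraries, which favours a call higher. The difference between X2 and D6 in the change from 0 h was not tested.

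The largest increases in D6 were again those of PGSC0003DMG400023458 and PGSC0003DMG400031365. Their log2 differences at 4 h were 4.08 ± 0.17 and 3.03 ± 0.16 (adjusted p = 1.62e-07 and 4.16e-07). Novel01899 was called at 4 h, with 2.93 ± 0.49 (adjusted p = 0.000482), and PGSC0003DMG400019386 at 4, 12 and 24 h, with 1.001 ± 0.28, 1.65 ± 0.28 and 2.14 ± 0.28 (adjusted p = 0.00912, 0.000504 and 0.000107). Novel01899 at 24 h had 1.49 ± 0.49 (adjusted p = 0.0229, not called) and was called without D6 24 h replicate 1 (1.71). The call of PGSC0003DMG400019386 at 4 h sat at the threshold and was lost without D6 4 h replicate 1 (0.98) or replicate 2 (0.91). It was also lost after median-of-ratios scaling (0.77), with a pseudocount of 1 (0.51) and by limma-voom on recovered reads (1.11). The call of PGSC0003DMG400019386 at 12 h was lost with a pseudocount of 1 (0.92).

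PGSC0003DMG402021549 went the other way, with a log2 difference of -1.44 ± 0.25 between D6 at 4 h and at 0 h (adjusted p = 0.000697). At 12 h the difference was -0.90 ± 0.25 (adjusted p = 0.0104) and at 24 h -0.23 ± 0.26 (adjusted p = 0.455), neither called, with the 24 h libraries overlapping the 0 h value. After median-of-ratios scaling the 12 h difference was -1.19 and was called. PGSC0003DMG402021564 had -0.11 ± 0.15 at 4 h (adjusted p = 0.526), 0.50 ± 0.15 at 12 h (adjusted p = 0.0149) and 0.83 ± 0.15 at 24 h (adjusted p = 0.000961), none called. PGSC0003DMG401021549 had 0.15 ± 0.12 at 4 h (adjusted p = 0.29), which was -0.12 after median-of-ratios scaling, and was called at 12 h (1.10 ± 0.12) and 24 h (1.19 ± 0.12; adjusted p = 3.61e-05 and 2.54e-05). PGSC0003DMG401021564 was called at the same 2 times, with 1.10 ± 0.17 and 1.18 ± 0.17 (adjusted p = 0.000323 and 0.000228). After median-of-ratios scaling, PGSC0003DMG401021549 (0.81 and 0.95) and PGSC0003DMG401021564 (0.82 and 0.94) were no longer called at 12 and 24 h.

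**Figure D3:**
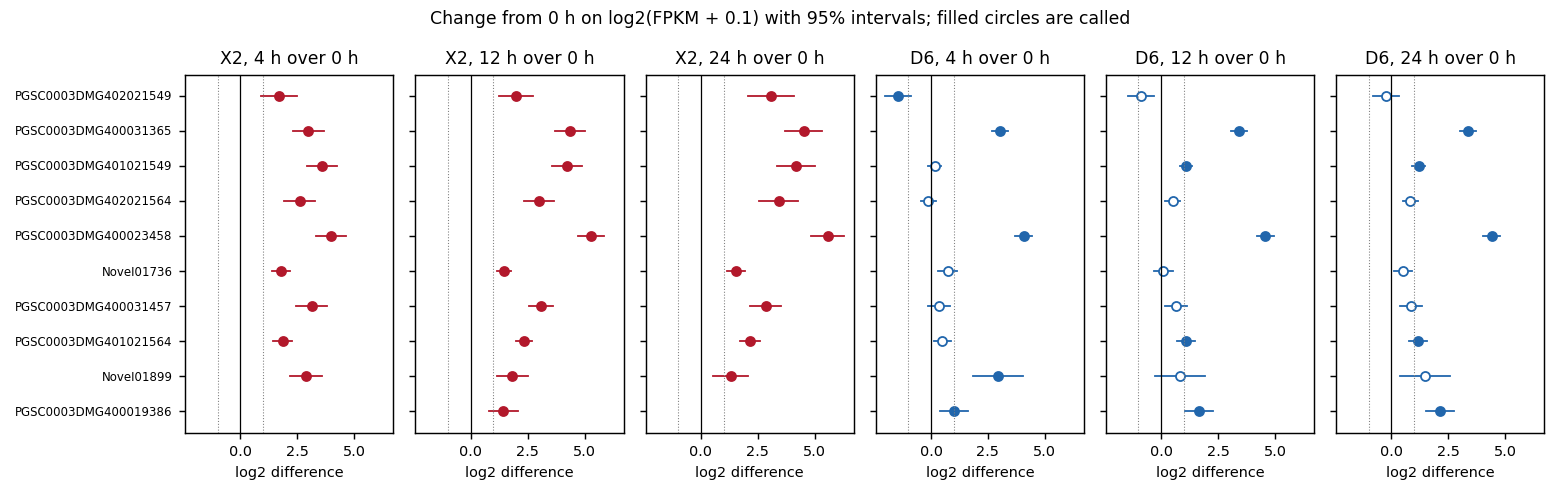
Log2 difference from 0 h on log2(FPKM + 0.1) (horizontal axis) for each PAL gene (rows) at 4, 12 and 24 h, X2 in red on the left and D6 in blue on the right; lines are 95% intervals, filled circles are called, and dotted lines mark -1 and 1. In X2 every circle shown lies right of 1, while in D6 PGSC0003DMG402021549 lies at -1.44 at 4 h. PGSC0003DMG400019386 has no circle in X2 at 4 and 24 h, where it was under the filter.

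The size of these changes depends on the scaling. Median-of-ratios size factors lower the all-gene median of the comparisons with 0 h by 0.39 to 0.52 on the log2 scale in X2 and by 0.23 to 0.28 in D6. With them 9, 9 and 8 PAL genes were called higher in X2 at 4, 12 and 24 h, and 3, 3 and 3 in D6. Over all genes tested, 4554 of 19063, 5107 of 19344 and 5081 of 19690 were then called higher in X2. In D6 it was 4925 of 19789, 4996 of 19856 and 4969 of 20245. The share of called genes that were higher, over the whole table, was 48.1 to 51.3% in X2 with size factors, against 66.4 to 69.1% as deposited, and 52.7 to 57.0% in D6, against 63.2 to 67.4%.

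Later times were also compared with each other. In X2 at 12 h, 2 of 10 PAL genes were called higher than at 4 h, against 13.0% of all genes, and 1 was called lower, against 10.2%. The genes called higher were PGSC0003DMG400031365 (1.37 ± 0.12) and PGSC0003DMG400023458 (1.33 ± 0.16; adjusted p = 2.97e-05 and 0.000137). The gene called lower was Novel01899 (-1.05 ± 0.24, adjusted p = 0.00526), whose call was lost with a pseudocount of 1 (-0.71), without X2 4 h replicate 2 (-1.01) or 3 (-0.88) and without X2 12 h replicate 2 (-0.91). In X2 at 24 h, 1 of 10 was called higher than at 12 h, against 7.41% of all genes: PGSC0003DMG402021549 (1.06 ± 0.16, adjusted p = 0.0026). Without X2 24 h replicate 1 that difference was 0.80 and not called.

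In D6 at 12 h, 0 of 10 PAL genes were called higher than at 4 h, against 15.0% of all genes, and 1 of 10 was called lower, against 12.5% of all genes. It was again Novel01899, at -2.10 ± 0.28 (adjusted p = 0.000557). PGSC0003DMG401021549 came next to the threshold from above 0, with 0.94 ± 0.09 (adjusted p = 0.000114), and 9 of 10 members had an unadjusted p of at most 0.05. In D6 at 24 h, 0 of 10 PAL genes were called against 12 h by limma, with 6.53% of all genes called higher, and 4 had an unadjusted p of at most 0.05. The count was also 0 under every alternative run, limma-voom on recovered reads included. For neither D6 step is the share of all genes with an unadjusted p of at most 0.05 given here.

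The step from 4 to 12 h in X2 was set against that in D6. The change of PGSC0003DMG400031365 was 1.37 in X2 and 0.38 in D6, a difference of 0.99 ± 0.18 (interaction, adjusted p = 0.00577). That of PGSC0003DMG400023458 was 1.33 in X2 and 0.49 in D6, a difference of 0.85 ± 0.22 (adjusted p = 0.0306, and 0.0686 without X2 4 h replicate 2). Neither reached a log2 difference of 1, so 0 of 10 were called, against 6.67% of all genes in either direction, and 3 had an unadjusted p of at most 0.05. For PGSC0003DMG400031365 the difference was just over 1 and called after median-of-ratios scaling (1.04), and without X2 4 h replicate 3 (1.12), X2 12 h replicate 2 (1.002) or 3 (1.025), D6 4 h replicate 1 (1.05) or D6 12 h replicate 1 (1.08). PGSC0003DMG400023458 was called without X2 4 h replicate 3 (1.02), and Novel01899, at 1.05 ± 0.39 (adjusted p = 0.101), without D6 12 h replicate 1 (1.26). For the step from 12 to 24 h, 0 of 10 were called by limma, against 3.75% of all genes. In that step 3 members had an unadjusted p of at most 0.05, and the smallest adjusted p, that of PGSC0003DMG400023458, was 0.122. The share of all genes at that unadjusted p is given for neither step.

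X2 was set against D6 at each time after cutting. At 4 h, 3 of 10 PAL genes were called lower in X2, against 9.79% of all genes. At 12 h, 2 of 10 were called lower, against 6.55%, and at 24 h 2 of 10, against 6.47%. PGSC0003DMG400019386 averaged 0.397 FPKM in X2 at 4 h and passed the filter there only through D6. With the filter at a mean of 1 FPKM, 2 members were called lower at 4 h. At 4, 12 and 24 h, 0 members were called higher in X2, against 8.28%, 6.05% and 5.31% of all genes. Every X2 library lay below every D6 library for 6, 8 and 7 of the members at the successive times, against 21.4%, 19.1% and 24.6% of all genes. The median log2 difference over the 10 genes was -0.60, -0.53 and -0.54, against 0.16, 0.10 and 0.05 over all genes.

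The genes called at 4 h were PGSC0003DMG400023458 (-1.47 ± 0.18), PGSC0003DMG400019386 (-1.42 ± 0.26) and PGSC0003DMG400031365 (-1.40 ± 0.14; adjusted p = 0.00074, 0.00421 and 0.000329). PGSC0003DMG400031365 had 97.0, 118 and 139 FPKM in X2 at 4 h, against 284, 337 and 307 FPKM in D6. At 24 h it had 342 and 331 FPKM in X2, against 402, 381 and 371 FPKM in D6, and a log2 difference of -0.19 (95% interval -0.45 to 0.07, adjusted p = 0.244). PGSC0003DMG400023458 likewise had -0.62 ± 0.10 at 12 h (adjusted p = 0.0031) and -0.17 ± 0.11 at 24 h (adjusted p = 0.299).

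PGSC0003DMG400019386 was lower in X2 at 4, 12 and 24 h, with -1.23 ± 0.19 at 12 h and -1.61 ± 0.21 at 24 h (adjusted p = 0.00251 and 0.00359). It had 0.849 and 0.827 FPKM in X2 at 24 h, against 2.57, 3.35 and 2.45 FPKM in D6. PGSC0003DMG400031457 had -0.70 ± 0.24 at 4 h (adjusted p = 0.0463, not called) and was called at 12 h (-1.03 ± 0.10) and at 24 h (-1.47 ± 0.13; adjusted p = 0.000279 and 0.000748). It had 7.91 and 7.29 FPKM in X2 at 24 h, against 21.7, 23.3 and 18.7 FPKM in D6. With a pseudocount of 1 the calls of PGSC0003DMG400019386 at 4 h (-0.66) and 12 h (-0.73) and of PGSC0003DMG400031457 at 12 h (-0.96) were lost, and the last was also lost without D6 12 h replicate 1 (-0.95).

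The other members were called at none of the times. PGSC0003DMG402021549 had -0.53 ± 0.18, -0.77 ± 0.11 and -0.38 ± 0.22 at 4, 12 and 24 h (adjusted p = 0.0435, 0.00168 and 0.256). PGSC0003DMG402021564 had -0.34 ± 0.13, -0.57 ± 0.06 and -0.47 ± 0.16 (adjusted p = 0.0692, 0.00057 and 0.0798). PGSC0003DMG401021549 had 0.34 ± 0.12 at 4 h (adjusted p = 0.0493), 0.05 at 12 h (95% interval -0.10 to 0.20) and -0.09 at 24 h (95% interval -0.38 to 0.19), and the 12 h value was -0.05 after median-of-ratios scaling. PGSC0003DMG401021564 had -0.40 ± 0.15, -0.50 ± 0.11 and -0.77 ± 0.14 (adjusted p = 0.0593, 0.0129 and 0.0114), and Novel01736 -0.62 ± 0.16, -0.30 ± 0.12 and -0.61 ± 0.10 (adjusted p = 0.0153, 0.0967 and 0.00902). Novel01899 had 95% intervals that included 0 at all 3 times.

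**Figure D4:**
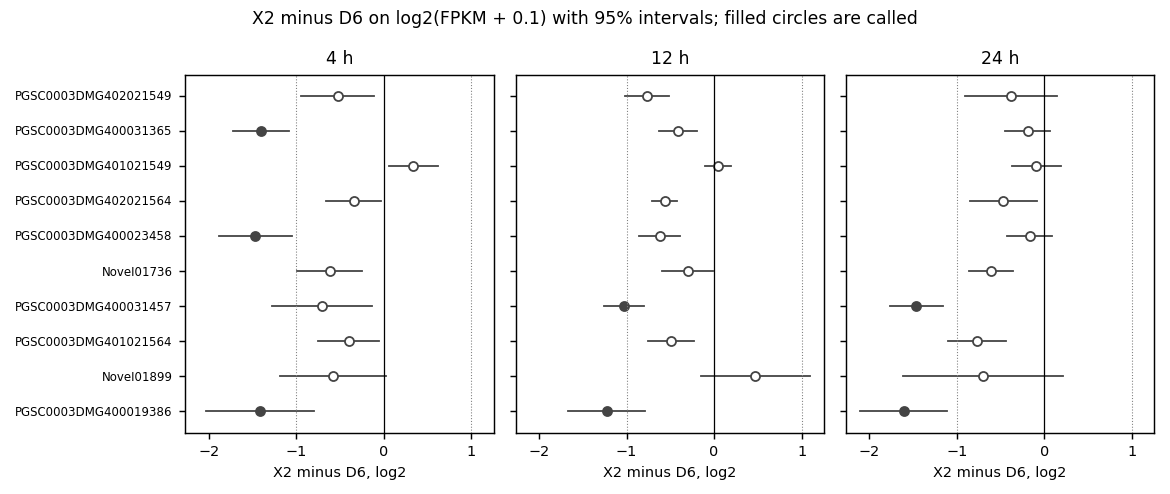
X2 minus D6 on log2(FPKM + 0.1) (horizontal axis) for each PAL gene (rows) at 4, 12 and 24 h; lines are 95% intervals, filled circles are called, and dotted lines mark -1 and 1. PGSC0003DMG400031365 and PGSC0003DMG400023458 lie near -1.4 and -1.5 at 4 h and close to 0 at 24 h, while PGSC0003DMG400031457 moves to -1.47 and PGSC0003DMG400019386 to -1.61.

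Ratios between members of the same library do not depend on the scaling between libraries. In X2, the ratio of PGSC0003DMG402021549 to PGSC0003DMG401021549 spanned 3.63 to 4.29, 1.04 to 1.13, 0.808 to 0.864 and 1.61 to 2.03 at 0, 4, 12 and 24 h. In D6 it spanned 1.68 to 2.26, 1.30 to 1.63 and 1.95 to 2.68 at the times after cutting, and was 5.89 in the 0 h library. X2 and D6 thus shared the course, down to 12 h and up again at 24 h, and the X2 ratios lay below all D6 ratios except at 24 h, where they overlapped.

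The ratio of PGSC0003DMG400031365 to PGSC0003DMG402021549 in X2 spanned 0.266 to 0.303, 0.664 to 0.701, 1.38 to 1.48 and 0.649 to 0.905 at 0, 4, 12 and 24 h. In D6 it spanned 1.04 to 1.64, 1.01 to 1.22 and 0.541 to 0.751 at the times after cutting, and was 0.0563 in the 0 h library. PGSC0003DMG400031365 thus exceeded PGSC0003DMG402021549 at 12 h in all X2 libraries and at 4 and 12 h in all D6 libraries. PGSC0003DMG400031365 over PGSC0003DMG400023458 stayed between 3.36 and 4.36 in every later library of X2 and between 3.42 and 3.94 in every later library of D6, against 7.38 to 9.28 at 0 h in X2 and 7.89 at 0 h in D6.

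**Figure D5:**
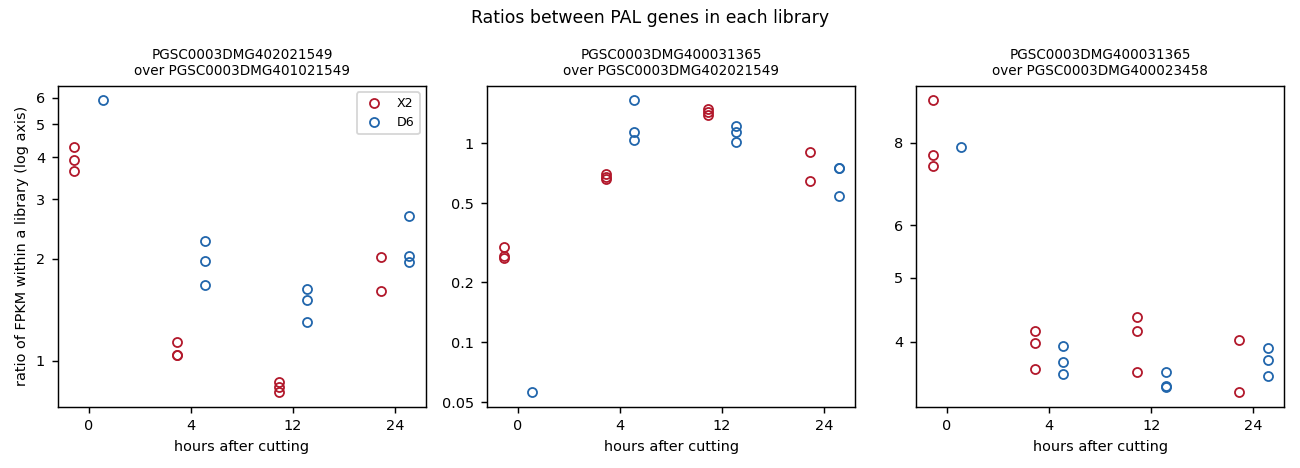
Ratio of FPKM between PAL genes within each library (circles, vertical log axis) against hours after cutting (categories), X2 in red left of D6 in blue. The ratio of PGSC0003DMG402021549 to PGSC0003DMG401021549 falls to 0.808 to 0.864 in X2 at 12 h and 1.30 to 1.63 in D6, and the ratio of PGSC0003DMG400031365 to PGSC0003DMG400023458 stays between 3.36 and 4.36 in every library after 0 h.

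Profiles of members were compared across the libraries of X2 and of D6 by Pearson's r on log2(FPKM + 0.1), as a description, since libraries of 1 time share their group. PGSC0003DMG400023458 and PGSC0003DMG400031365 were the most alike pair in both, with r of 0.996 over 11 X2 libraries and 0.999 over 10 D6 libraries. PGSC0003DMG402021549 was like PGSC0003DMG400031365 in X2 (0.940) and ran against it in D6 (-0.347). Its r with PGSC0003DMG401021549 was 0.920 in X2 and 0.434 in D6. These D6 values hold the lone 0 h library, in which PGSC0003DMG402021549 is high and PGSC0003DMG400031365 low. Novel01736 and Novel01899, which overlap on the genome, had r of 0.901 in X2 and 0.906 in D6.

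Outside the family, likeness was measured as r with the log2 of the summed PAL FPKM over all 21 libraries, among 177 genes that had a mean of at least 5 FPKM and a description. Descriptions come from the study, which gave them mostly to genes that changed strongly in these samples. The highest was FH protein NFH2, PGSC0003DMG400021912 (r = 0.957), with means of 0.224, 3.11, 11.3 and 24.4 FPKM in X2 and 3.29, 13.9, 24.9 and 20.1 FPKM in D6 at 0, 4, 12 and 24 h. Next came Class II chitinase, PGSC0003DMG400001528 (r = 0.931), an enzyme that cleaves chitin, a glucosyltransferase, PGSC0003DMG400005960 (r = 0.914), a wound/stress protein, PGSC0003DMG400013983 (r = 0.911), and respiratory burst oxidase homolog protein A, PGSC0003DMG400012316 (r = 0.898), an enzyme that makes superoxide. Of 11604 genes at that level outside the family, 122 had an r as high as that of the respiratory burst oxidase.

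Of the enzymes that act after or beside PAL, 6 genes were matched by the gene descriptions of the study's tables, and all were described there for a strong change or for their part in flavonoid synthesis. They are thus no sample of the pathway. Cinnamate hydroxylase, coumarate ligase and the other classes sought were not matched by these descriptions and are not analysed here. In X2, 4 of 4 tested were called higher than at 0 h at 4 h, 4 of 4 at 12 h and 5 of 5 at 24 h, and in D6 3 of 4, 6 of 6 and 6 of 6. None was called lower than at 0 h. A gene enters such a count only if it reached the filter. Cinnamoyl-CoA reductase, cinnamyl alcohol dehydrogenase and PGSC0003DMG400029621, a chalcone synthase 1B, did so only through the later group, which favours a call higher. Cinnamoyl-CoA reductase averaged 0.389 FPKM in X2 and had 0.190 FPKM in D6 at 0 h.

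Chalcone synthase, the entry to the flavonoids, rose mostly between 4 and 12 h. Chalcone synthase 2, PGSC0003DMG400019110, averaged 4.90, 46.6, 824 and 959 FPKM in X2 and 7.16, 31.8, 802 and 1263 FPKM in D6 at 0, 4, 12 and 24 h. Its step from 4 to 12 h was 4.22 ± 0.25 on the log2 scale in X2 and 4.65 ± 0.16 in D6 (adjusted p = 4.54e-06 and 1.02e-05). Chalcone isomerase, PGSC0003DMG400011655, the next enzyme of that branch, averaged 1.72, 10.5, 320 and 436 FPKM in X2 and 3.63, 10.4, 420 and 664 FPKM in D6. Chalcone synthase 1B, PGSC0003DMG400029620, averaged 626 FPKM in X2 and 1546 FPKM in D6 at 24 h, and was called lower in X2 (-1.33 ± 0.23, adjusted p = 0.0101). Chalcone synthase 2 and chalcone isomerase were low in D6 at 0 h, where the PAL sum was 927 FPKM.

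Cinnamoyl-CoA reductase and cinnamyl alcohol dehydrogenase act in succession on the way from cinnamic acid to lignin monomers. Cinnamoyl-CoA reductase, PGSC0003DMG400017842, averaged 0.389, 8.33, 50.2 and 21.3 FPKM in X2 and 0.190, 1.31, 19.4 and 17.5 FPKM in D6 at 0, 4, 12 and 24 h. Unlike the PAL genes it was called higher in X2 than in D6 at 4 h (2.57 ± 0.21) and at 12 h (1.36 ± 0.16; adjusted p = 0.00016 and 0.000794). Cinnamyl alcohol dehydrogenase, PGSC0003DMG400018446, came last, with 4.79 FPKM in X2 and 3.15 FPKM in D6 at 24 h, against 0.530 FPKM in X2 and 0.692 FPKM in D6 at 12 h.

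Of the marker classes sought for other cell types, 4 genes carried a description, patatin included, and they moved over the same hours. Chlorophyll a/b-binding protein PS II-Type I, PGSC0003DMG400007375, a marker of green tissue, averaged 0.0452, 0.272, 0.981 and 5.43 FPKM in X2 and 0.271, 0.800, 4.52 and 13.8 FPKM in D6. Suberization-associated anionic peroxidase, PGSC0003DMG400022342, a gene of wound periderm, averaged 0.963, 2.65, 9.15 and 62.8 FPKM in X2 and 1.32, 3.07, 7.24 and 31.8 FPKM in D6. Suberization-associated anionic peroxidase 2, PGSC0003DMG400022341, instead peaked at 4 h, with 12.8 FPKM in X2 and 115 FPKM in D6. Patatin-3-Kuras 1, PGSC0003DMG401017090, averaged 0.199 FPKM in X2 and 1.92 FPKM in D6 at 24 h. The D6 libraries spanned 0.104 to 5.04 FPKM and overlapped those of X2, at 0.191 to 0.206 FPKM. The part of cell types in the PAL values was not tested.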

How the data were processed

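RNA-Seq libraries of X2 and D6 tubers were analysed from 1 deposited table. The authors mapped reads with HISAT to SolTub_3.0, counted them with featureCounts v1.5.0-p3 and deposited FPKM; GEO's processing fields instead name CASAVA 1.8, Bowtie 0.12.2 and a mouse build. Columns were assigned by name, which left 1 column with per-sample values unused. The members and lists were chosen with earlier results of these data known. All 10 members are named; other named genes are those of fixed pathway and marker classes, as far as the study described them, and the 5 described genes most like the PAL sum.

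limma 3.58.1 (R 4.3.3, eBayes with trend) was run on log2(FPKM + 0.1) over genes with a mean of at least 0.5 FPKM, with p-values adjusted by Benjamini-Hochberg. Comparisons used the libraries of their groups, except that D6 against 0 h used all D6 libraries. p-values measure the spread between these libraries. Whole reads, within 0.02, were recovered for 29390 of 29390 genes above 0 in at least 3 libraries (539713 values) and tested by limma-voom as an alternative. On simulated data, 181 of 181 genes changed by 2 on the log2 scale in X2 4 h against 0 h were recovered. There were 7 false calls among 17863 genes tested. In X2 24 h against 0 h, 183 of 183 were recovered, with 22 false calls among 17869. The simulation changed a small part of the genes, none with few reads, at a fixed dispersion and without a shift between libraries. Its rate of false calls thus does not carry over to these data. Tables and plots were made in Python 3.11.15 (matplotlib 3.10.9, pandas 2.3.3, numpy 2.4.6; intervals by scipy 1.17.1). Libraries of D6 with the same number at 12 and 24 h went together weakly (correlation of deviations 0.12 to 0.28 in each of 3 pairs). No label states a pairing, and the main test of that step did not use it. In X2, 12 and 24 h share 2 numbers (0.13 and 0.20), too few to call them paired, and other comparisons had at least 1 pair at 0.1 or lower. Alternatives were median-of-ratios size factors, other pseudocounts and filters, joint modelling of every library, the library number as a replicate block, and omission of single libraries.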

Additional observations from a re-analysis of the deposited data

Results flagged for a closer look

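PGSC0003DMG402021549 moved in opposite directions in X2 and D6 over the first hours. Its mean at 4 h was 3.06 times that of 0 h in X2, with every library above 0 h, and 0.373 times in D6, with every library below the 0 h library. At 12 h it was 3.71 times that of 0 h in X2 and 0.538 times in D6. PGSC0003DMG402021564 was at 5.86 times in X2 and at 0.926 times in D6 at 4 h. The difference between X2 and D6 was not tested.

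For PGSC0003DMG400031365 and PGSC0003DMG400023458 the step from 4 to 12 h was larger in X2 than in D6, by 0.991 and 0.846 on the log2 scale with an adjusted p of 0.00577 and 0.0306 by limma. Neither was called, since both lay under a log2 difference of 1, and without X2 4 h replicate 2 the adjusted p was 0.0184 and 0.0686.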

How the results depend on the processing

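Of 2001 alternative values of the 148 log2 differences of members, 1945 kept the direction and the side of the threshold, 29 lost a call, 12 gained one and 15 changed sign. With median-of-ratios size factors, 3 PAL genes were called higher and 1 lower in D6 at 12 h against 0 h. Of all 19856 genes tested there, 4996 were called higher and 4144 lower. In D6 at 24 h, 3 PAL genes were called higher, against 4969 of 20245 genes. For 1 PAL gene the 4 to 12 h change was called larger in X2 than in D6, against 912 of 19812 genes. With these size factors the PAL sum of X2 at 12 h was 836.5 FPKM, against 934.8 as deposited. PGSC0003DMG401021549 changed sign with size factors in D6 4 h against 0 h (-0.1158), X2 24 h against 12 h (0.05549) and X2 against D6 at 12 h (-0.05477), as did Novel01736 in D6 12 h against 0 h (-0.1831). With a pseudocount of 1, 3 genes were called higher in D6 at 12 h than at 0 h, 0 lower in X2 at 12 h than at 4 h and 0 lower in X2 than in D6 at 12 h, and the 4 to 12 h change of PGSC0003DMG400019386 in X2 minus D6 was -0.06617. The causes of these changes were not tested. Shares of all genes called with a pseudocount of 1, or with the filter at 1 FPKM, are not given here.

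PGSC0003DMG402021549, PGSC0003DMG400031365 and PGSC0003DMG401021549 together held 81.07, 79.67 and 81.76% of the PAL sum in X2 at 0, 4 and 12 h, and 77.27, 79.63 and 81.34% in D6 at 4, 12 and 24 h. Without the predicted genes the shares were 86.93, 83.2 and 83.39% in X2 and 80.63, 81.03 and 82.97% in D6, since the sum is then smaller. As shares of reads they were 81.58% in X2 at 4 h, and 78.97 and 80.21% in D6 at 4 and 12 h.

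With single libraries omitted, the count of PAL genes called lower in X2 at 12 h than at 4 h ranged from 0 to 1, higher in X2 at 24 h than at 12 h from 0 to 1, lower in X2 than in D6 at 12 h from 1 to 2, and with a larger 4 to 12 h change in X2 from 0 to 2. Small differences changed sign: Novel01736 in D6 12 h against 0 h (-0.03523 to 0.1677) and X2 24 h against 12 h (-0.0006623 to 0.1857), PGSC0003DMG400031457 in X2 12 h against 4 h (-0.2926 to 0.156), PGSC0003DMG401021549 in X2 24 h against 12 h (-0.1435 to 0.04523) and X2 against D6 at 24 h (-0.1869 to 0.001888), and in D6 24 h against 12 h PGSC0003DMG401021564 (-0.01748 to 0.1509) and PGSC0003DMG400031365 (-0.1088 to 0.02316). The X2 minus D6 change of PGSC0003DMG401021564 from 4 to 12 h (-0.2309 to 0.001017) and of PGSC0003DMG402021564 from 12 to 24 h (-0.09034 to 0.2847) did so too. A replicate block changed 1 call, that of Novel01899 in X2 24 h against 0 h (1.516), with 8 members called in place of 9. In the D6 step from 12 to 24 h the block called 2259 genes in place of 2095. The 13 to 34 reads on Novel01899 in X2 at 0 h limit its precision.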
